A study of Mus musculus with 15 samples.

Results

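The comparison set organoids from liver metastases of the second transplant round (Met2, replicates 1, 2 and 3) against organoids from primary tumours of the same round (Primary2, replicates 1, 2 and 3), across all genes. The libraries were chosen by their titles, and the 6 libraries are part of 15 in the series. All were colon cancer organoids, tumour epithelium grown in culture, of the AKP genotype, named in the field for its engineered tumour genes, Apc and Trp53 among them, and all recipient mice were C57Bl6, an immunocompetent strain. In each round, organoids set up from liver metastases were transplanted into the colon again, and organoids from primary tumours were passed through the same steps as controls, so both groups had been through a mouse and back into culture. The labels do not say whether the 3 replicates of a group are separate mice, lines or cultures of 1 line. Every p-value thus measures only the spread between libraries, which the main fit pooled over all 15 of the series. Poly(A)-selected RNA was counted per gene, giving 14892932 to 16220780 counts per library in Met2 and 17996537 to 21306543 in Primary2.

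GATA6 and GATA4 are zinc finger transcription factors of the endoderm. GATA6 is active in the proliferating crypt of the colon, while GATA4 is normally a factor of the small intestine. Colon epithelium is renewed by Wnt-driven stem cells at the crypt base, and its identity is held by CDX2, HNF4 and GATA factors. In regenerating gut and in tumours, YAP with its TEAD partners switches on a wound-like set of genes.

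Most epithelial markers were high in every library. Epcam, a cell-surface glycoprotein of epithelium, had 777 to 826 CPM (counts scaled to a common library size) in Met2 and 854 to 1030 CPM in Primary2. Krt20 was low throughout, at 1.48 to 6.9 CPM in Met2 and 1.23 to 4.26 CPM in Primary2, and Cdx2 had 13 to 22.5 CPM in Primary2. The summed level of 9 colon tumour epithelium markers was 5660 to 14700 CPM in Met2 and 5750 to 8350 CPM in Primary2. The 7 hepatocyte markers summed to 0 to 0.0645 CPM in Met2 and 0.0926 to 0.86 CPM in Primary2. The 6 immune markers summed to 8.59 to 14.4 CPM in Met2 and 5.96 to 10.4 CPM in Primary2. Most of that was Cd68, a lysosomal protein abundant in macrophages, with 8.51, 14.1 and 8.3 CPM in Met2 and 3.55, 8.52 and 5.4 CPM in Primary2, while the macrophage genes Lyz2 and Adgre1 and the T cell gene Cd3e had 0 counts in all 6 libraries. The 4 endothelial markers summed to 0.193 to 1.54 CPM in Met2 and 0.139 to 0.284 CPM in Primary2. The 7 fibroblast markers summed to 0.0734 to 5.16 CPM in Met2 and 0.185 to 0.43 CPM in Primary2. The top of the Met2 range was replicate 1, which alone held Dcn (2.28 CPM) and Col3a1 (1.68 CPM), matrix genes of fibroblasts. Pdgfra was also highest there (1.07 CPM). The other markers did not follow: Col1a1 and Lum had no count in that library, and Pdgfrb and Col1a2 had 0.067 CPM each. For Col1a2 that was below all Primary2 libraries (0.0926 to 0.322 CPM). In bulk RNA, fewer cells of a type and less RNA per cell cannot be told apart.

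Met2 replicate 1 lay apart from its group. The standard deviation over genes of the log2 CPM difference was 1.01 between Met2 replicates 1 and 2 and 1.11 between replicates 1 and 3, against 0.688 between replicates 2 and 3. Among the Primary2 libraries it was 0.507 to 0.607, and between Met2 replicate 1 and the Primary2 libraries 0.999 to 1.10, so that library was about as far from its own group as from the primary organoids. On the first principal component of all 15 libraries, which held 45.8% of the variance, Met2 replicates 1, 2 and 3 scored 1.49, 31.3 and 40.9, and Primary2 scored -29.4 to -14.7. With the 6 libraries alone, the first component (52.3%) placed replicate 1 with its group. Met2 scored 23.3, 27.9 and 40.8 there, and Primary2 -31.7 to -29.6. Replicate 1 stood apart on the second component (32.9%), at -51.65 against 16.2 and 25.7 in replicates 2 and 3. The coefficient of variation between replicates fitted by edgeR was 0.51 in Met2, 0.335 in Met2 without replicate 1 and 0.289 in Primary2. Over all 15 libraries, whose pooled spread the main test used, it was 0.343, below that of Met2 itself. A technical measure also moved with the groups: a ribosomal RNA gene took 6.24% to 7.52% of counts in Met2 and 3.74% to 3.83% in Primary2, and its part in the results below cannot be told apart from the groups within this round. In round 3 that share was 3.38% to 4.09% in the metastasis libraries and 3.53% to 7.03% in the primary libraries.

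Among 14925 genes tested, 1768 (11.8%) passed at an adjusted p under 0.05 in edgeR's quasi-likelihood test, 821 higher (5.5%) and 947 lower (6.35%) in Met2. Of these, 840 changed at least 2-fold, 411 higher and 429 lower. The 3 Met2 and 3 Primary2 libraries did not overlap in 1702 of the called genes and in 4424 of all genes tested (29.6%). Without Met2 replicate 1, 2150 of 15372 genes were called (14%), 1049 higher (6.82%) and 1101 lower (7.16%); 1329 genes were called both ways, all in the same direction. The count rests on the spread taken from all 15 libraries: a fit of the 6 libraries alone called 215 genes, or 1078 once Met2 replicate 1 was left out of it as well. A separate fit of all 15 libraries, with the ribosomal RNA share as a covariate, called 112. That share moved with the groups in this round. Leaving out Met2 replicate 2 or 3 gave 1375 or 1132 calls, and leaving out Primary2 replicate 1, 2 or 3 gave 806, 923 or 715. Under all of 17 alternatives 69 genes passed, 23 higher and 46 lower.

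The gene of the series title, Gata6, was lower in the metastasis organoids. It had 1.21, 0 and 0.147 CPM in Met2, against 3.12, 8.89 and 3.41 CPM in Primary2. The groups did not overlap, and replicate 1 was the Met2 library that kept the most. The fitted log2 change was -3.49 (SE 0.99, edgeR adjusted p = 0.0393), and without Met2 replicate 1, where Met2 held 2 counts in all, Primary2 was 76.5-fold higher (95% counting interval 21 to 635). The call held under 7 of 17 alternatives, with adjusted p from 0.0027 to 0.234 over them. Its relative Gata4 went the other way, with 0, 2.26 and 12.6 CPM in Met2, against 0.161, 0 and 0.0948 CPM in Primary2. The log2 change was 5.78 (SE 1.53, edgeR adjusted p = 0.0302), and replicates 2 and 3 alone carried it, since replicate 1 had no count. The Gata4 call held under 8 of the 16 alternatives that tested it, and was lost with the ribosomal covariate (edgeR adjusted p = 0.597).

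Of the genes behind the AKP name, Apc, the scaffold that marks beta-catenin for destruction, had 34.7, 44.4 and 49 CPM in Met2, against 88.5, 77.3 and 89.1 CPM in Primary2. The groups stood apart, the log2 change was -0.99 (SE 0.13, edgeR adjusted p = 0.00187), and the call held under 15 of 17 alternatives (adjusted p from 1.15e-09 to 0.062); it was lost with the 6 libraries alone (0.0501) and with the ribosomal covariate (0.062). Trp53, which encodes p53, had 5.97, 4.71 and 4.92 CPM in Met2 and 7.25, 7.46 and 8.91 CPM in Primary2 (log2 difference -0.60, SE 0.23, adjusted p = 0.105).

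Several genes were on in every primary library and at or near 0 in every metastasis library. Bex1, an X-linked adaptor protein best known from neurons, had 0.134, 0 and 0 CPM in Met2, against 519, 314 and 285 CPM in Primary2. Met2 held 2 counts in all, so that Primary2 was 8060-fold higher with a 95% counting interval of 2230 to 66500 (edgeR adjusted p = 0.000129). Ggta1, the enzyme that adds the alpha-gal sugar cap absent from human cells, had 0, 0.0645 and 0 CPM in Met2, against 19.1, 31.7 and 18.8 CPM in Primary2, a ratio of 1030 (interval 185 to 40800, adjusted p = 0.000129). The developmental transcription factors Tlx1, Tfap2b and Pax2 had no count in any Met2 library. Tlx1, a homeobox factor needed for the spleen, had 23.3, 5.98 and 17.8 CPM in Primary2 and was at least 225-fold lower in Met2, against a floor of 3 counts over the group. Tfap2b, an AP-2 factor of neural crest and kidney, had 9.56, 10.5 and 17.5 CPM in Primary2 and was at least 186-fold lower in Met2. Of the others with the largest falls, Scara3, a scavenger receptor-like protein, Lrp2, the endocytic receptor megalin, Efemp1, a fibulin, and Apob had at most 0.067 CPM in any Met2 library and 1.29 to 40.8 CPM in Primary2. Bex1, Ggta1, Tlx1, Tfap2b and Scara3 passed under every alternative.

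Developmental transcription factors were called in both directions, 4 of 20 higher and 5 lower, beside 5.5% and 6.35% over all genes tested. Beside Tlx1, Tfap2b and Pax2, Sox17, an endoderm factor, had 0, 0.645 and 0 CPM in Met2, against 33.3, 26.2 and 13.8 CPM in Primary2 (log2 change -6.73, SE 1.29, edgeR adjusted p = 0.00816), and Pax8, a paired-box factor of thyroid and kidney, fell by 5.03. Sox5, Meis1, Dach1 and Tfap2a rose, by 1.80 to 6.98. Dach1 rested on replicate 1, with 20.7, 0.451 and 0.294 CPM in Met2, against 0.107, 0 and 0.0474 CPM in Primary2.

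On the other side, Fundc2, a mitochondrial outer membrane protein, had 82.5, 68.5 and 59 CPM in Met2, against 0, 0.463 and 0 CPM in Primary2 (log2 change 8.70, SE 1.89, edgeR adjusted p = 0.0143). Zfp462, a zinc finger protein of chromatin, had 15.3, 5.93 and 8.81 CPM in Met2, against 0.161, 0 and 0.0948 CPM in Primary2 (6.80, SE 1.0, adjusted p = 0.00264). It was the single one of the 12 largest rises that passed under every alternative. Stk39, a kinase that activates chloride cotransporters, had 52.2, 27 and 4.26 CPM in Met2, against 0, 0.324 and 0 CPM in Primary2 (7.86, SE 1.40, adjusted p = 0.00592). Levels within Met2 varied widely in several of these genes. Ffar4, the receptor for long-chain omega-3 fatty acids, had 0.938, 10.4 and 81.4 CPM in Met2 and 0.0474 to 0.215 CPM in Primary2, while Pid1, an adaptor that dampens insulin signalling, ran the other way within Met2, with 22.9, 7.03 and 0.441 CPM against 0 to 0.0537 CPM in Primary2. Clip4, a microtubule linker protein, Cacna2d1, a calcium channel subunit, Epgn, St8sia4, Nat8l, which makes N-acetylaspartate, and Dner, a Notch-type ligand of neurons, had 0.387 to 37.1 CPM in the Met2 libraries and at most 0.185 CPM in Primary2. Pcdhgc4 also stood among them, but clustered protocadherins share their last exons, and how the counting split those reads is uncertain.

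**Figure D1:**
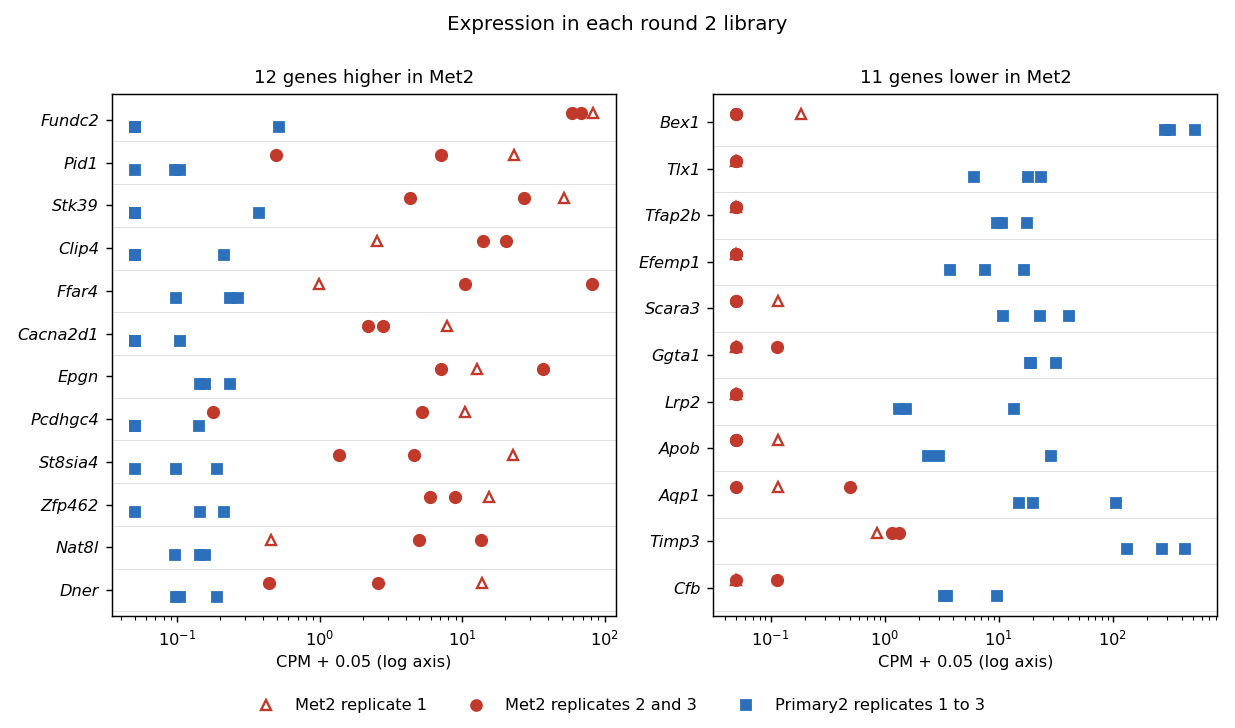
CPM plus 0.05 on a log axis in each round 2 library for the 12 genes most raised (left) and 11 of the most lowered (right) in Met2 against Primary2. Open triangles are Met2 replicate 1, filled circles Met2 replicates 2 and 3, squares the 3 Primary2 libraries; Met2 and Primary2 points do not overlap in any of the 23 genes, as the choice of genes required, and Bex1 shows 519, 314 and 285 CPM in Primary2.

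The promoters of Bex1, Ggta1, Stk39 and Epgn (250 bases before to 50 after the start, RefSeq, GRCm38.p6, gene strand) are printed to show the range of CG content among the genes switched between the groups, with each CG in capitals. They lie at chrX:136215464-136215763 (minus strand), chr2:35461400-35461699 (minus), chr2:68471932-68472231 (minus) and chr5:91027267-91027566 (plus).
Bex1: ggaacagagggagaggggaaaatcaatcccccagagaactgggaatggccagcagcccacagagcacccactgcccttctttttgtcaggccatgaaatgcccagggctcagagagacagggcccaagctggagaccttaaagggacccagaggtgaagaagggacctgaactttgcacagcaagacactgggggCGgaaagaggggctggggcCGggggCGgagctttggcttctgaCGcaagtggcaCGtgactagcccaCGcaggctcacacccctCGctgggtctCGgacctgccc
Ggta1: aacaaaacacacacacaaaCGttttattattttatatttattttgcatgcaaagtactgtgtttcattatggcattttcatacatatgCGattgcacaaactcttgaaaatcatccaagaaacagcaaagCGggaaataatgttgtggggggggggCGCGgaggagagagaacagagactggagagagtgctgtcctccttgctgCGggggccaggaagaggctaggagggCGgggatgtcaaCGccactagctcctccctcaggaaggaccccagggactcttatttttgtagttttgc
Stk39: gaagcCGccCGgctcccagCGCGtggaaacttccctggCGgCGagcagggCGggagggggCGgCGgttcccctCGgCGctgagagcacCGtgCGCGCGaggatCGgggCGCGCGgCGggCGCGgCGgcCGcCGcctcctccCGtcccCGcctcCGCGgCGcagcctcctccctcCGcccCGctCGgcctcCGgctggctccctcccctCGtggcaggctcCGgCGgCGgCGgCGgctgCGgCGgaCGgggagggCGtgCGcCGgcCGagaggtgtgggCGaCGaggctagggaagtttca
Epgn: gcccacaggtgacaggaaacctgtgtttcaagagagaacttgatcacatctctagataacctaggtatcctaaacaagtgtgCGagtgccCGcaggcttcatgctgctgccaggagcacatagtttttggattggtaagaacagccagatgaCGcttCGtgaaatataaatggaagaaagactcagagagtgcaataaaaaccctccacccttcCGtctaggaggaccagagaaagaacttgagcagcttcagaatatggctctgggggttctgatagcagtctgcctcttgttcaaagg

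Bex1 and Ggta1, lost in Met2, held 8 CG each, and of the genes gained in Met2 Stk39 held 49 and Epgn 5. Promoters were found in the table for 18 of the 24 genes with the largest changes. The median was 19 CG (2 to 49) in the 9 higher genes and 9 (8 to 24) in the 9 lower genes, beside 20 in the 10478 promoters of genes tested and 7 in all 27025 promoters. The GATA motif AGATAA, read on both strands, stood in Epgn alone of the 18 and in 6.49% of the promoters of tested genes. The TEAD motif GGAATG, also read on both strands, stood in Bex1 and Fundc2 (12.1% of tested promoters), and the AP-1 motif TGANTCA in Efemp1 (5.48%). None of these motifs contains a CG, and they are matches of letters in a short window only.

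The changes with the tightest replicates were smaller. Malt1, the protease of the CARD-BCL10-MALT1 complex that feeds NF-kappaB, had the smallest adjusted p of all genes. It had 28.8, 31.9 and 27.8 CPM in Met2, against 97, 104 and 91.5 CPM in Primary2, a log2 change of -1.72 (SE 0.12, edgeR adjusted p = 2.71e-05; -1.71 without Met2 replicate 1). Trim10, an erythroid TRIM-family protein, had 17.1, 18.4 and 21.7 CPM in Met2, against 0.43, 0.926 and 0.664 CPM in Primary2 (4.80, SE 0.41, adjusted p = 0.000129). Apobec1, the cytidine deaminase that edits the transcript of apolipoprotein B in the small intestine, had 25.3, 21.8 and 24.5 CPM in Met2, against 1.88, 1.48 and 1.33 CPM in Primary2 (3.93, SE 0.43, adjusted p = 0.000712). Its best-known target Apob moved the opposite way, with 0.067, 0 and 0 CPM in Met2, against 28.8, 2.36 and 2.94 CPM in Primary2. In these genes Met2 replicate 1 sat with replicates 2 and 3.

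The same held for a further set. Sgk3, a kinase of the PI3K pathway, Alad, the heme synthesis enzyme that makes porphobilinogen, and Mgst3, a microsomal glutathione transferase, rose by 3.54 (SE 0.35), 1.81 (SE 0.18) and 1.49 (SE 0.12) on the log2 scale. Palmd, which encodes palmdelphin, had 0.67, 0.774 and 0.22 CPM in Met2, against 20.2, 26.4 and 38.5 CPM in Primary2. Itgb6, the beta chain of the epithelial integrin that releases active TGF-beta, had 9.05, 12.1 and 7.93 CPM in Met2, against 29.6, 42.1 and 41.1 CPM in Primary2 (-1.95, SE 0.22, adjusted p = 0.000816). Colgalt1, which glycosylates collagen, and Tbcd, a tubulin-folding cofactor, fell by 1.25 (SE 0.12) and 1.43 (SE 0.17) on the log2 scale. All of these passed under every alternative.

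Intestinal transcription factors were called higher more often than lower. Of 21 measured members of that list, 6 rose and 1, Gata6, fell, with a median log2 change of 0.68, beside 5.5% higher, 6.35% lower and a median of 0.02 over all genes tested. Cdx2, the master factor of hindgut identity, had 72.6, 94 and 111 CPM in Met2, against 21.2, 13 and 22.5 CPM in Primary2. It was 4.9-fold higher in Met2 (log2 change 2.29, SE 0.26, edgeR adjusted p = 0.000833; 2.44 without Met2 replicate 1) and passed under every alternative. Pparg, the nuclear receptor of lipid metabolism and colonocyte maturation, had 29.3, 68.7 and 105 CPM in Met2, against 10.6, 22 and 5.21 CPM in Primary2 (2.42, SE 0.56). Isx, a homeobox repressor of vitamin A uptake, had 3.08, 13.2 and 136 CPM in Met2 and 1.02 to 2.2 CPM in Primary2. Creb3l3, a lipid-responsive factor of liver and gut, and Klf4, a factor of differentiating epithelium, also rose. Creb3l3 rested mostly on replicate 3, with 0.134, 0.58 and 3.82 CPM in Met2 and at most 0.0537 CPM in Primary2. Its call held under 8 of the 14 alternatives that tested it, and that of Klf4 under 8 of 17. Hnf4a, which defines enterocyte programmes, had 0, 15.6 and 6.98 CPM in Met2, against 14, 23.4 and 18.2 CPM in Primary2, and did not pass (log2 difference -1.30; -0.71 without Met2 replicate 1).

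Few genes of mature gut cell types were measured or called, where 5.5% of all genes tested were higher and 6.35% lower. Of 9 goblet cell genes measured, 1 rose: Agr2, a disulfide isomerase for mucins, had 49.5, 203 and 277 CPM in Met2, against 12.4, 15.1 and 8.44 CPM in Primary2 (3.88, SE 0.76, edgeR adjusted p = 0.00943). It was 2 of 9 without Met2 replicate 1. Of 11 enterocyte and colonocyte genes none was called (1 of 12 higher without Met2 replicate 1), and no enteroendocrine gene passed the filter on low counts. Reg3b, an antimicrobial lectin of deep crypts, fell (2 counts in all of Met2, 107 in Primary2). Markers of stomach and foregut split: Muc1, a membrane mucin, had 0.067, 0.451 and 1.1 CPM in Met2, against 14.5, 26.4 and 22.7 CPM in Primary2, and Onecut2, a hepatic and foregut homeobox factor, had 0.067, 1.74 and 0.22 CPM in Met2, against 76.5, 95.1 and 90.4 CPM in Primary2. Ctse, a gastric cathepsin, fell as well, while Sox21, a factor of the anterior foregut, rose by 1.10 (SE 0.20) on the log2 scale.

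Crypt stem cell genes were called lower or not at all. Of 16 measured, 0 rose and 3 fell, with a median log2 change of -0.40. Over all genes tested, 5.5% were higher and 6.35% lower. Ascl2, the factor that maintains Lgr5-positive stem cells, had 0.268, 7.67 and 2.2 CPM in Met2, against 23.9, 24.5 and 21.5 CPM in Primary2 (-2.77, SE 0.70, edgeR adjusted p = 0.0256). Slc12a2, the basolateral sodium-potassium-chloride cotransporter of crypt cells, fell by 1.02 (SE 0.21) on the log2 scale, and Aqp1, a water channel, fell to 0.067, 0 and 0.441 CPM in Met2, against 19.9, 14.9 and 106 CPM in Primary2. Lgr5, the Wnt co-receptor that marks these cells, had 5.9, 19.6 and 22.5 CPM in Met2 and 19.3, 28.3 and 27.8 CPM in Primary2 and did not pass. Without Met2 replicate 1 the list gave 1 higher and 6 lower of 17.

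Wnt feedback genes depended on that library. With all libraries 1 of 20 rose and 2 fell, beside 5.5% higher and 6.35% lower over all genes tested. Nkd2, an inhibitor of Dishevelled, had 2.28, 0.129 and 0.0734 CPM in Met2, against 18.6, 9.17 and 13.4 CPM in Primary2 (-4.04, SE 0.93, edgeR adjusted p = 0.0176). Znrf3, the ligase that removes Wnt receptors, fell by 0.89 (SE 0.25) on the log2 scale. Bambi, a decoy receptor of BMP and TGF-beta signalling that Wnt also induces, rose, with 53.1, 45.3 and 20.8 CPM in Met2, against 8.22, 10.7 and 6.02 CPM in Primary2 (2.26, SE 0.32, adjusted p = 0.00218). Without Met2 replicate 1, 8 of 20 fell. Among the added ones was Axin2, the classic feedback gene, with 143, 79 and 36.4 CPM in Met2 and 117, 132 and 146 CPM in Primary2: replicate 1 sat within the Primary2 range and replicates 2 and 3 below it.

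Of 20 measured YAP target genes, 0 rose and 7 fell (median log2 change -0.73; 6.35% of all genes were lower), and without Met2 replicate 1 it was 0 and 9 of 22. Ankrd1, a muscle-type ankyrin repeat protein widely used as a YAP readout, had 2.14, 1.16 and 0.147 CPM in Met2, against 84.7, 62.2 and 97.6 CPM in Primary2. It was 68.8-fold higher in Primary2 (log2 change -6.12, SE 0.95, edgeR adjusted p = 0.00321) and passed under every alternative. The matricellular genes Ccn1 and Ccn2 fell by 2.08 and 2.22 on the log2 scale. Amotl2, an angiomotin that holds YAP in the cytoplasm, Crim1, a BMP-binding membrane protein, Dock5, a Rac exchange factor, and Ajuba, a LIM protein that restrains LATS kinases, fell by 0.71 to 1.26. Amotl2 and Ajuba are themselves regulators of YAP. Ccn2 and Ajuba were not called without Met2 replicate 1.

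Genes of fetal and regenerative epithelium did not move as a block, with 2 of 18 higher and 3 lower, beside 5.5% higher and 6.35% lower over all genes tested. Clu, the chaperone clusterin that marks revival stem cells, had 33, 47.7 and 17.3 CPM in Met2, against 376, 634 and 585 CPM in Primary2 (-4.02, SE 0.56, edgeR adjusted p = 0.00203). Spp1, the secreted phosphoprotein osteopontin, had 118, 134 and 280 CPM in Met2, against 824, 2190 and 1070 CPM in Primary2 (-2.94, SE 0.41, adjusted p = 0.00203). Basp1, a membrane-bound growth cone protein, fell too. Ly6a, the surface protein Sca-1, rose by 0.75 on the log2 scale. The 5 calls thus ran in both directions. The list gave 5 higher and 3 lower without Met2 replicate 1; the added genes were Il1rn, the interleukin 1 receptor antagonist, Msln, which encodes mesothelin, and Cd55, a complement regulator.

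**Figure D2:**
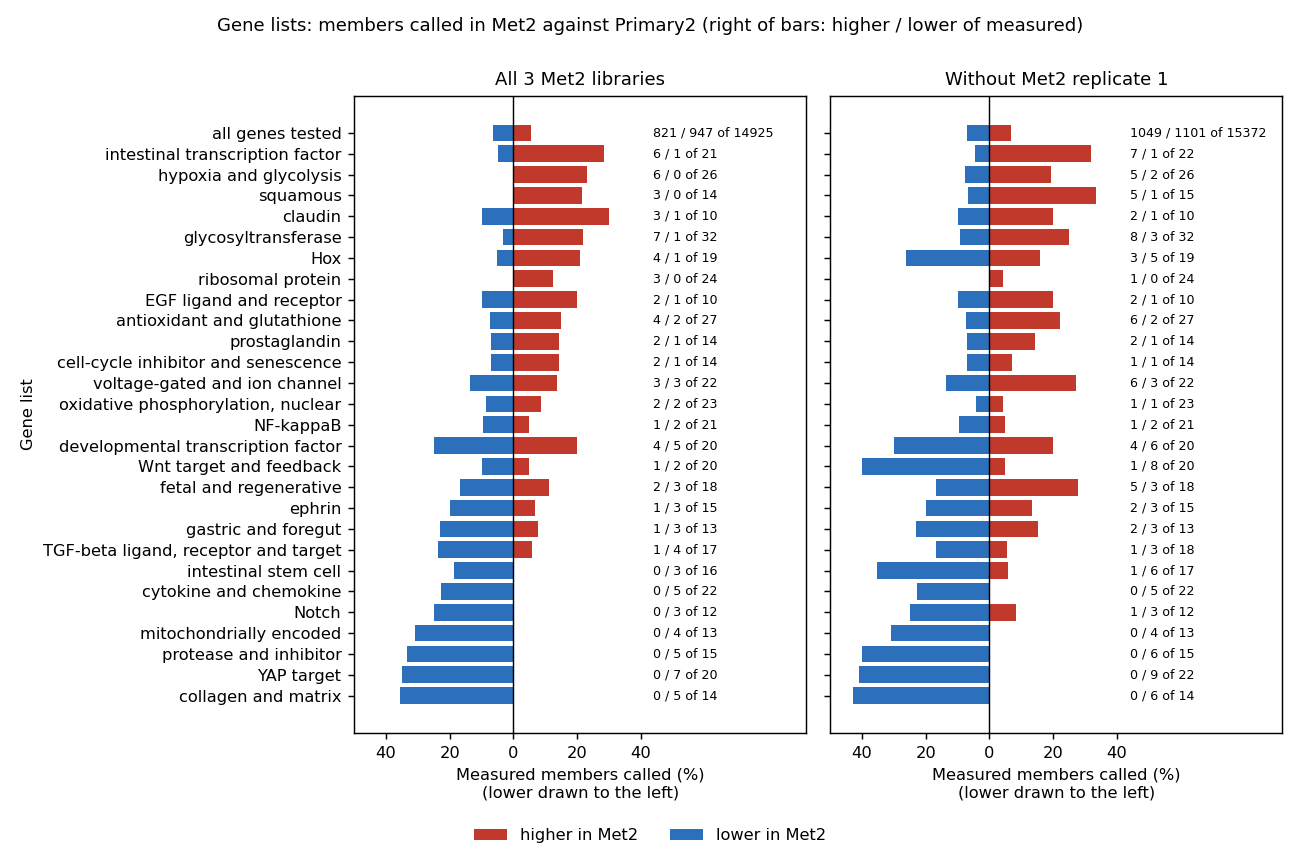
Share of measured members of 27 gene lists called higher (red, to the right) and lower (blue, to the left) in Met2 against Primary2, with all 3 Met2 libraries (left) and without Met2 replicate 1 (right). Lists with at least 10 measured members and 3 calls are drawn, with the counts beside the bars and all genes tested on top (821 higher and 947 lower of 14925); YAP targets show 0 higher and 7 lower of 20.

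Genes of the matrix and of its turnover were called lower or not at all. Of 14 collagen and matrix genes 0 rose and 5 fell, and of 15 proteases and inhibitors 0 rose and 5 fell. Over all genes tested, 5.5% were higher and 6.35% lower. Col4a1 and Col4a2, the paired chains of basement membrane collagen, had 20, 54.5 and 45.2 CPM and 17.5, 46.9 and 48.6 CPM in Met2, against 158, 161 and 286 CPM and 159, 163 and 291 CPM in Primary2. Their log2 changes were -2.34 (SE 0.39) and -2.44 (SE 0.41). Hspg2, which encodes perlecan, Lamc1, a laminin chain, and Efemp1, a fibulin with no count in Met2, fell with them. Timp3, the matrix-bound metalloproteinase inhibitor, had 0.804, 1.29 and 1.1 CPM in Met2, against 134, 267 and 429 CPM in Primary2 (-8.01, SE 1.12, edgeR adjusted p = 0.00203; -7.84 without Met2 replicate 1). Mmp14, a membrane metalloproteinase, Plat, a plasminogen activator, and Timp1 fell as well, so the calls covered proteases and their inhibitors alike. Each list had 6 lower and 0 higher without Met2 replicate 1. The summed fibroblast markers were highest in Met2 replicate 1 and lowest in replicate 3, with replicate 2 (0.193 CPM) within the Primary2 range; their part in these changes was not tested.

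Among TGF-beta genes, 1 of 17 rose and 4 fell, beside 5.5% higher and 6.35% lower over all genes tested. Tgfb3, a ligand, had 5.56, 5.29 and 1.69 CPM in Met2, against 50.2, 36.1 and 44.7 CPM in Primary2 (-3.38, SE 0.41, edgeR adjusted p = 0.00108), and passed under every alternative. Tgfbr1, the type I receptor, had 11.5, 13 and 14.2 CPM in Met2, against 21.3, 24.9 and 23.7 CPM in Primary2 (-0.85, SE 0.19, adjusted p = 0.0161). The target Pmepa1 fell by 2.0 on the log2 scale. The gene that rose was Cdkn1a, the cell-cycle inhibitor p21, with 130, 78.3 and 115 CPM in Met2, against 23.7, 52.9 and 33.6 CPM in Primary2 (1.55, SE 0.43, adjusted p = 0.0351). It is also a target of p53, and no other of 19 measured p53 targets was called. The call of Cdkn1a held under 9 of 17 alternatives, and without Met2 replicate 1 it was lost (log2 difference 1.39, SE 0.46, adjusted p = 0.0643), as was that of Pmepa1 (0.0607). In that fit the higher member was Smad3, a signal transducer, in the TGF-beta list and Perp, a desmosomal protein, in the p53 list.

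In the list of mesenchymal genes 0 of 9 rose and 2 fell, beside 5.5% higher and 6.35% lower over all genes tested. Cald1, an actin-binding caldesmon, fell by 2.96 (SE 0.73) on the log2 scale, and Foxc2, a forkhead factor of mesenchyme, had no count in Met2. In the fit without Met2 replicate 1, 3 of 11 fell. Vim, the intermediate filament of mesenchyme, was not called and split within Met2, with 44.4, 0.322 and 0.0734 CPM in Met2 against 2.63, 1.39 and 2.46 CPM in Primary2. In the epithelial list 2 of 21 rose and 0 fell, and without Met2 replicate 1 it was 7 and 0. Krt8, a keratin of simple epithelium, had 824, 3570 and 4040 CPM in Met2, against 759, 1280 and 1030 CPM in Primary2, so that replicate 1 lay among the primary libraries. Ovol1, a repressor of mesenchymal genes, had 27.3, 30.1 and 30.1 CPM in Met2, against 10.5, 17.7 and 11.8 CPM in Primary2 (1.12, SE 0.31, edgeR adjusted p = 0.0355).

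The EGF receptor ligands moved in opposite directions, with 2 of 10 list members higher and 1 lower. Over all genes tested, 5.5% were higher and 6.35% lower. Areg, amphiregulin, had 126, 145 and 183 CPM in Met2, against 18.2, 27.2 and 15.2 CPM in Primary2 (2.90, SE 0.50, edgeR adjusted p = 0.00491). Epgn, epigen, had 12.6, 7.03 and 37.1 CPM in Met2, against 0.107, 0.185 and 0.0948 CPM in Primary2 (7.11, SE 1.40, adjusted p = 0.00944). Ereg, epiregulin, had 0, 0 and 0.0734 CPM in Met2, against 4.51, 4.26 and 2.37 CPM in Primary2, a ratio of 162 in favour of Primary2 (interval 28.9 to 6440, adjusted p = 0.00481). Each ligand kept Met2 and Primary2 fully apart, and each call held under 16 of 17 alternatives. Of 18 genes read as MAPK output 2 rose, Dusp6, the ERK phosphatase, by 0.86 (SE 0.17) and Fosl1, an AP-1 subunit, by 0.99 (SE 0.25) on the log2 scale, and 0 fell.

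Enzymes of prostaglandin synthesis also moved in opposite directions. Ptges, the terminal synthase of prostaglandin E2, had 143, 220 and 242 CPM in Met2, against 6.93, 13 and 10.1 CPM in Primary2 (4.33, SE 0.65, edgeR adjusted p = 0.00298). Pla2g4a, the phospholipase that frees arachidonic acid, had 51.5, 99.9 and 61.5 CPM in Met2, against 20.7, 24.9 and 26.8 CPM in Primary2 (1.55, SE 0.29, adjusted p = 0.00713). Ptgs1, the constitutive cyclooxygenase between those steps, had 37.5, 49.7 and 53.2 CPM in Met2, against 405, 309 and 439 CPM in Primary2 (-3.04, SE 0.41, adjusted p = 0.00191). Of the 14 list members, 2 rose and 1 fell, beside 5.5% higher and 6.35% lower over all genes tested.

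Of 22 cytokines and chemokines 0 rose and 5 fell, with or without Met2 replicate 1, beside 5.5% higher and 6.35% lower over all genes tested. Cxcl5, a neutrophil chemokine, had 5.03, 12.5 and 9.69 CPM in Met2, against 88.6, 76.8 and 244 CPM in Primary2 (-3.91, SE 0.73, edgeR adjusted p = 0.00719). Csf1 and Csf2, the growth factors of macrophages and granulocytes, had 0.335 to 0.387 CPM and 0.067 to 0.322 CPM in Met2, against 2.26 to 13.4 CPM and 1.67 to 5.78 CPM in Primary2. Cxcl16, a membrane-bound chemokine, and Cxcl3, another neutrophil chemokine, fell by 1.19 and 2.61 on the log2 scale. Csf1r, the receptor for Csf1 and a macrophage marker, also fell, with 0.134 to 0.22 CPM in Met2 against 1.67 to 4.93 CPM in Primary2, whereas Cd68 of the same marker list ran the other way (8.3 to 14.1 CPM in Met2 and 3.55 to 8.52 CPM in Primary2) and Lyz2 and Adgre1 had no count. In the NF-kappaB list of 21, Malt1 and Traf1, a TNF receptor adaptor, fell and Card14, an activator of MALT1 in epithelium, rose. Card14 had 2.48, 12.1 and 9.47 CPM in Met2, against 2.15, 3.29 and 1.37 CPM in Primary2. Replicate 1 thus lay inside the Primary2 range, and the Card14 call held under 9 of 17 alternatives. Cfb, complement factor B, had 1 count in Met2 and 339 in Primary2. None of 28 interferon-stimulated genes was called (2 higher without Met2 replicate 1), and of 21 genes for MHC class I presentation H2-Q4, a nonclassical class I molecule of a family of near-identical genes, rose and Erap1, the aminopeptidase that trims peptides, fell. Both calls were lost without Met2 replicate 1 (adjusted p = 0.0675 and 0.0573).

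Among glycosyltransferases 7 of 32 rose and 1, Ggta1, fell, beside 5.5% higher and 6.35% lower over all genes tested. Leaving out Met2 replicate 1 gave 8 and 3, with the sialyltransferase St3gal5 and the fucosyltransferase Fut4 added on the lower side. Gcnt3, the core branching enzyme of mucin glycans, had 66.5, 78.3 and 150 CPM in Met2, against 22.5, 30.9 and 11.4 CPM in Primary2 (2.18, SE 0.36, edgeR adjusted p = 0.00421). Fut2, the secretor fucosyltransferase, had 104, 103 and 140 CPM in Met2, against 45.4, 57.9 and 49.8 CPM in Primary2 (1.18, SE 0.24, adjusted p = 0.011). B3gnt7, which extends keratan-type chains, B3galt5, St3gal3, Gcnt4 and the polysialyltransferase St8sia4 rose as well. St8sia4 was highest in replicate 1, with 22.6, 4.51 and 1.32 CPM in Met2 and 0 to 0.139 CPM in Primary2.

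Of 26 hypoxia and glycolysis genes 6 rose and 0 fell, beside 5.5% higher and 6.35% lower over all genes tested. Slc2a1, the glucose transporter GLUT1, had 283, 370 and 509 CPM in Met2, against 121, 224 and 189 CPM in Primary2 (1.12, SE 0.28, edgeR adjusted p = 0.0257). Hk1, Gapdh, Tpi1 and Pkm, enzymes of the glycolytic chain, rose by 0.48 to 1.01, and Car9, a hypoxia-induced carbonic anhydrase, rose by 3.19 (SE 0.96). Without Met2 replicate 1 the list gave 5 higher and 2 lower; the 2 were Slc2a3, a second glucose transporter, and Slc16a3, a lactate exporter, while Tpi1 and Car9 lost the call (adjusted p = 0.122 and 0.0645).

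Genes of the mitochondrial genome fell in part. Of 13, 4 fell and 0 rose, beside 6.35% lower and 5.5% higher over all genes tested. All 4 encode subunits of complex I. mt-Nd5 had 343, 404 and 382 CPM in Met2, against 731, 661 and 778 CPM in Primary2 (-0.94, SE 0.14, edgeR adjusted p = 0.00263), and mt-Nd2 had 473, 503 and 422 CPM in Met2, against 866, 721 and 871 CPM in Primary2 (-0.81, SE 0.15). mt-Nd4 and mt-Nd1 fell by 0.67 and 0.61. The mitochondrial genes together took 1.38% to 1.57% of counts in Met2 and 1.83% to 2.10% in Primary2. In the nuclear-encoded respiratory chain, 2 of 23 rose and 2 fell (1 and 1 without Met2 replicate 1). In round 3 none of the 13 was called and the median difference was 0.01, and no test of the difference between rounds passed for mt-Nd5 (log2 difference between the changes -0.91, SE 0.19, adjusted p = 0.261).

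Antioxidant and glutathione genes were called in both directions, 4 of 27 higher and 2 lower, beside 5.5% higher and 6.35% lower over all genes tested. Beside Mgst3, the transferase Gsto1, the peroxidase Gpx1 and the NRF2 repressor Keap1 rose, by 0.34 to 0.78 on the log2 scale, while the transferase Gsta3 and Gclm, a subunit of the enzyme for glutathione synthesis, fell. The calls changed without Met2 replicate 1: in that fit 6 were higher and 2 lower, and the 2 were the transferases Gstm1 and Gstm2 in place of Gsta3 and Gclm. Slc7a11, the cystine importer, was the 1 lower gene of 27 in the list of amino acid and unfolded protein response genes, of which 0 rose and whose median log2 change was 0.43. It had 73.5, 38.7 and 82.5 CPM in Met2, against 169, 230 and 215 CPM in Primary2 (-1.66, SE 0.33, edgeR adjusted p = 0.00944). Mt1 and Mt2, the metallothioneins that bind zinc and copper, belong to none of the lists and were picked after their values were seen, among the 69 genes called under every alternative. They rose by 2.44 (SE 0.34) and 4.65 (SE 0.57).

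Among 10 claudins, the strands of tight junctions, 3 were called higher and 1 lower. Over all genes tested, 5.5% were higher and 6.35% lower. Cldn2, the leaky cation-pore claudin, had 0, 2.77 and 0.22 CPM in Met2, against 86.6, 217 and 125 CPM in Primary2 (-7.12, SE 1.16, edgeR adjusted p = 0.00386). Cldn6 and Cldn9, claudins of embryonic epithelium, and Cldn1 rose, the last of them not without Met2 replicate 1 (adjusted p = 0.0836). Cldn6 had 24.9, 1.1 and 5.8 CPM in Met2 and 0.427 to 0.913 CPM in Primary2. Cldn9 had 5.36, 27.5 and 1.69 CPM in Met2 and 0.19 to 0.752 CPM in Primary2. Their calls held under 10 and 8 of 17 alternatives. Cldn1 was near 0, with 24 counts in all of Met2 and 4 in Primary2, and passed under 5 of the 14 alternatives that tested it. Of 15 ephrin genes 1 rose and 3 fell (2 and 3 without Met2 replicate 1). Ephb4, a receptor tyrosine kinase, had 13.1, 17.5 and 12.6 CPM in Met2, against 127, 113 and 123 CPM in Primary2 (-3.07, SE 0.45, adjusted p = 0.00277), with the ligands Efna3 and Efna4 lower and Epha1 higher. Notch1 and its ligands Jag1 and Jag2 fell, 3 of 12 Notch genes, though Jag1 was not called without Met2 replicate 1 (adjusted p = 0.111). Notch1 had 0.201, 6.06 and 3.97 CPM in Met2, against 18.1, 18.2 and 28.3 CPM in Primary2. Squamous genes rose in 3 of 14, and without Met2 replicate 1 in 5 of 15 with 1 lower. Krt15, a basal keratin, had 17.8, 45.4 and 80.8 CPM in Met2, against 1.72, 1.99 and 4.27 CPM in Primary2 (4.17, SE 0.90, adjusted p = 0.0143). Pkp1, a desmosomal plakophilin, rose by 0.93 (SE 0.24), and the rise of Sprr2h, a cornified envelope protein of a repetitive gene family, rested on replicate 3 (1.21, 2.45 and 105 CPM in Met2).

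Of 26 proliferation genes 0 rose and 2 fell, a share of falls near the 6.35% over all genes tested. Top2a, the mitotic topoisomerase, had 289, 356 and 289 CPM in Met2, against 581, 479 and 468 CPM in Primary2 (-0.71, SE 0.17, edgeR adjusted p = 0.023), and Bub1, a checkpoint kinase, fell by 0.63 (SE 0.17). Of 14 cell-cycle inhibitors Cdkn1a and Cdkn1c rose and Rbl2 fell (1 higher and 1 lower without Met2 replicate 1). Ribosomal protein genes rose in 3 of 24, by 0.35 to 0.63, and 0 fell, and without Met2 replicate 1 it was 1 and 0.

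Metabolic lists held few calls, and several changed without Met2 replicate 1. The shares over all genes tested were 5.5% higher and 6.35% lower. Of 24 cholesterol synthesis genes 1 fell and 1 rose, Mvk, mevalonate kinase, by 0.80 on the log2 scale (SE 0.21). Leaving out Met2 replicate 1 gave 4 higher, Lss and Hsd17b7 among those added, and 1 lower. Of 26 fatty acid genes Acadl, a mitochondrial acyl-CoA dehydrogenase, and Pparg rose and 0 fell. Leaving that library out gave 2 and 3, with the desaturases Fads1 and Fads2 and the elongase Elovl7 lower. Of 23 chromatin genes Dnmt3a, a DNA methyltransferase, was the one call, with 15.3, 15.9 and 22.9 CPM in Met2, against 30.6, 37.7 and 38 CPM in Primary2 (-0.97, SE 0.25, edgeR adjusted p = 0.0275). Its call was lost without Met2 replicate 1 (-0.87, SE 0.28, adjusted p = 0.059), where Hmga1, a chromatin architectural protein, was the one call, higher. Among 22 ion channel and transport genes 3 rose and 3 fell (6 and 3 without Met2 replicate 1). Ryr3, a calcium release channel, had 0.938, 1.35 and 2.42 CPM in Met2 and no count in Primary2, and was at least 31.5-fold higher in Met2.

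The calls among Hox genes, which record position along the gut, divided by cluster. Of 19 measured, Hoxa2, Hoxa3, Hoxa11 and Hoxa13 rose and Hoxb13 fell, beside 5.5% higher and 6.35% lower over all genes tested. Hoxa13, the hindgut-end member, had 27.7, 17.5 and 8.3 CPM in Met2, against 3.87, 6.72 and 2.18 CPM in Primary2 (2.07, SE 0.57, edgeR adjusted p = 0.0353). Without Met2 replicate 1 the list gave 3 higher and 5 lower, and the 5 were Hoxb4, Hoxb5, Hoxb6, Hoxb7 and Hoxb8. The calls of Hoxa13 and Hoxb13 were lost (adjusted p = 0.0837 and 0.0731), and that of Hoxa13 held under 8 of 17 alternatives. Hoxb7 had 4.22, 0 and 0 CPM in Met2, against 32.4, 31.4 and 25.4 CPM in Primary2, and without replicate 1 it was at least 288-fold lower in Met2. Hoxb6 had 20.6, 0.129 and 0.147 CPM in Met2, against 23.6, 21.2 and 27.9 CPM in Primary2. Replicate 1 thus lay near the primary libraries in Hoxb6, and replicates 2 and 3 near 0.

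The genes that set Met2 replicate 1 apart are given as a description, with no test, since they were picked by that distance. In 6830 genes replicates 2 and 3 both lay outside the Primary2 range on the same side. Replicate 1 lay on that side too in 4424 of them, inside the Primary2 range in 1318 and on the opposite side in 1088. Leaving it out added 821 calls and removed 439, and of the added genes replicate 1 had been inside the Primary2 range in 300 and on the opposite side in 290.

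The highest in replicate 1 included genes of secreted proteins. Ptn, the growth factor pleiotrophin, had 352, 0.0645 and 0 CPM in Met2, against 1.72, 0.834 and 0.0474 CPM in Primary2. Gstm7, a glutathione transferase, had 139, 0.516 and 0.367 CPM in Met2, against 11.3, 22.5 and 11.7 CPM in Primary2. Cxcl15, the chemokine lungkine, had 111, 0.709 and 0.661 CPM in Met2, against 2.31, 1.95 and 1.42 CPM in Primary2. Fetub, Fermt2, Dapl1, Dusp22 and Masp1 had 38.2 to 53.4 CPM in that library and at most 0.294 CPM in replicates 2 and 3. The fitted direction of several of these genes turned when replicate 1 was left out. The log2 difference was 7.10 with it and -4.41 without it for Ptn, 4.30 and -1.45 for Cxcl15, and 1.62 and -5.07 for Gstm7, and Fetub, Fermt2, Dapl1 and Masp1 turned in the same way. Gstm7 was among the genes called lower without replicate 1, and Dusp22 among those called higher only with it.

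The lowest in replicate 1 included genes of gut epithelium. Lgals4, a galectin of gut epithelium, had 9.52, 1090 and 1460 CPM in Met2, against 415, 267 and 214 CPM in Primary2. Ephb2, the receptor that positions crypt cells, had 1.68, 65.6 and 101 CPM in Met2, against 11.4, 25.5 and 20 CPM in Primary2. Plac8, Gabrp, Trim29, Krt27, Trp53i11 and Entpd8 also had replicate 1 below all 3 Primary2 libraries, at 0 to 26.9 CPM. Some calls of the full comparison rested on replicate 1: Id4, a BMP-induced inhibitor of helix-loop-helix factors, had 34.4, 1.29 and 0.808 CPM in Met2, against 0.484, 1.11 and 0.521 CPM in Primary2, and its log2 change was 4.09 with that library and 0.57 without it. Aqp11, an intracellular aquaporin, changed by 2.07 with it and 0.53 without it.

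**Figure D3:**
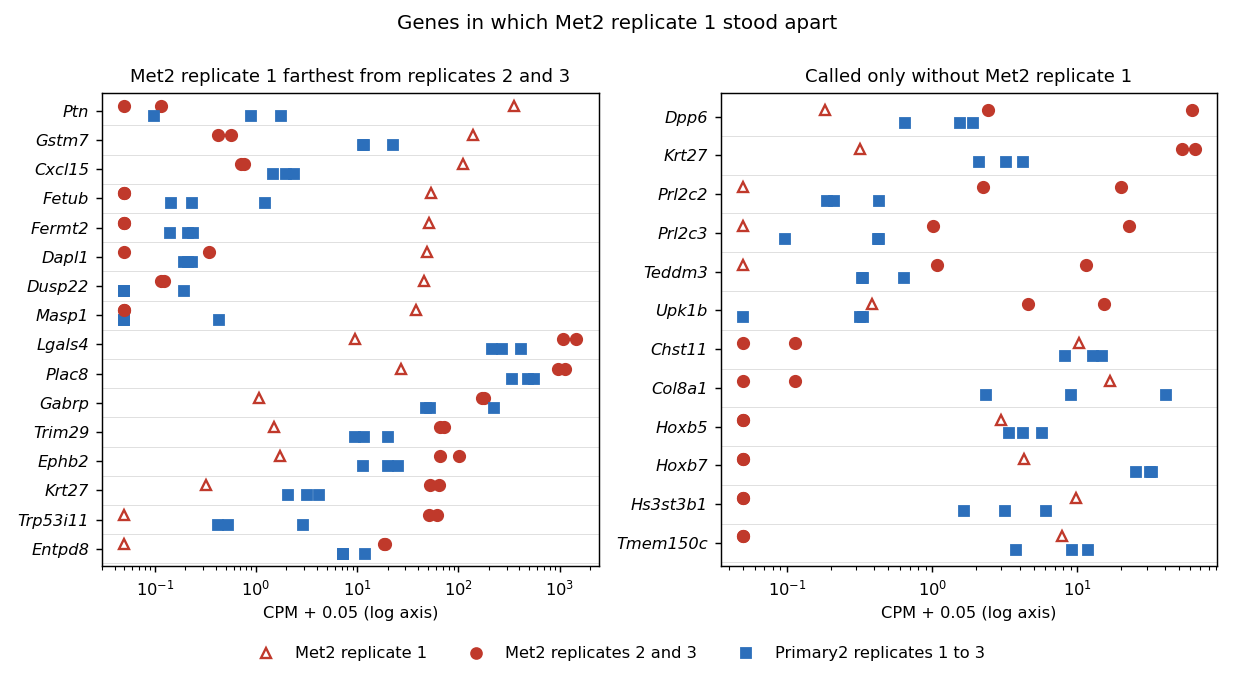
CPM plus 0.05 on a log axis in each round 2 library for the 16 genes in which Met2 replicate 1 lay farthest from replicates 2 and 3 (left) and for 12 genes called only when Met2 replicate 1 was left out (right). Open triangles are Met2 replicate 1, filled circles Met2 replicates 2 and 3, squares Primary2; Ptn shows 352 CPM in replicate 1, and in Hs3st3b1 and Chst11 replicate 1 lies within or above the Primary2 points.

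Genes called only without replicate 1 included sulfotransferases and matrix genes. Chst11, a chondroitin sulfotransferase, had 10.2, 0.0645 and 0 CPM in Met2, against 8.17, 14.6 and 12.8 CPM in Primary2. Col8a1, a short-chain collagen, had 16.6, 0.0645 and 0 CPM in Met2, against 2.31, 40.6 and 8.96 CPM in Primary2. In both, replicate 1 fell within the Primary2 range. On the higher side, Upk1b, a uroplakin of urothelium, had 0.335, 4.51 and 15.2 CPM in Met2, against 0.269, 0 and 0.284 CPM in Primary2. Prl2c2 and Prl2c3, prolactin-family genes, were also among them, but they are near-identical copies whose reads cannot be assigned with certainty.

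The calls were not spread evenly over the chromosomes. On chromosome 18, 111 of 389 tested genes were lower and 3 higher (29.3% called, against 7.16% to 15.4% on the other 19 chromosomes), with a median log2 change of -0.45. The median of log2 CPM over its genes, relative to the Primary2 mean, was -0.42, -0.44 and -0.43 in Met2 replicates 1, 2 and 3. The 3 Met2 libraries were thus alike here. Each Primary2 library was set against the mean of the other 2 Primary2 libraries instead, which gave 0.14, -0.01 and -0.10. In 44.5% of its genes all Met2 libraries lay below all Primary2 libraries, against 16.9% of all genes tested. The chromosome holds 2.61% of the tested genes and 11.7% of the lower calls. Gata6, Apc, Malt1, Onecut2 and Slc12a2, all lower in Met2, lie there, and so do Bambi and Pcdhgc4, which were higher. Round 3 gave 117 lower and 9 higher (median -0.38). Chromosome 5 differed between libraries. Taken in the same 2 ways, its medians were 0.54, -0.20 and 0.21 in Met2 and 0.37, -0.03 and -0.36 in Primary2. On chromosome 6 Met2 replicates 1 and 2 were at 0.27 and 0.34 and replicate 3 at -0.05. DNA copy number was not measured here, and its part in these medians was not tested.

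**Figure D4:**
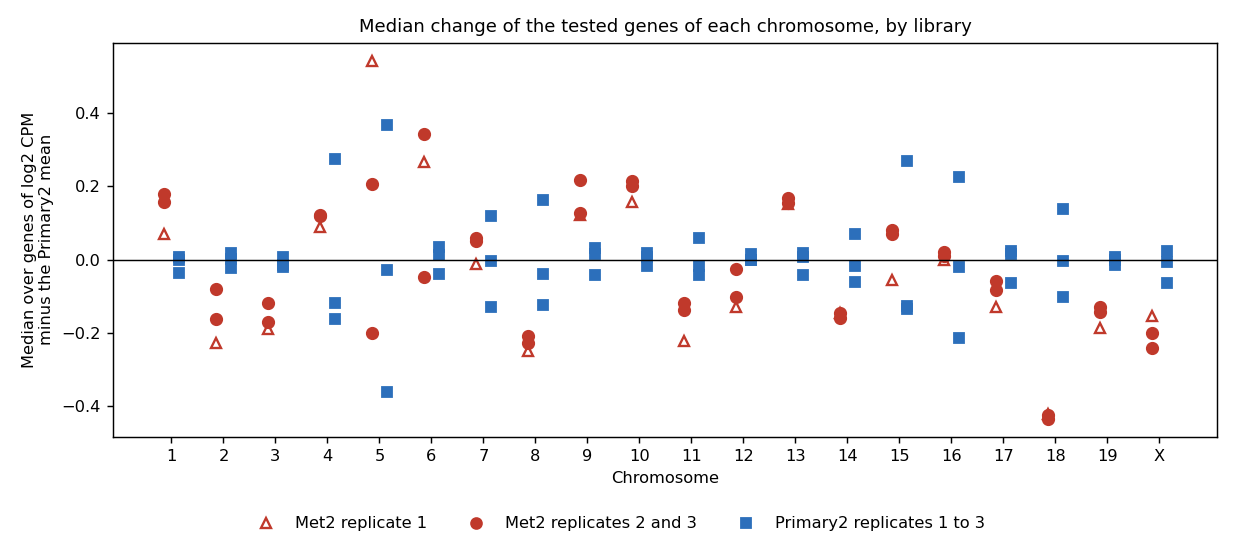
Median over the tested genes of each chromosome of log2 CPM minus a reference. For the 3 Met2 libraries (open triangle replicate 1, filled circles replicates 2 and 3) the reference is the Primary2 mean. For each of the 3 Primary2 libraries (squares) it is the mean of the other 2 Primary2 libraries. On chromosome 18 the Met2 libraries sit at -0.42 to -0.44, below the Primary2 libraries at -0.10 to 0.14, and chromosome 5 spreads from -0.36 to 0.54 over the 6 libraries.

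Round 3, which used other libraries, made the same comparison with Met3 against Primary3. It gave 2850 calls (19.1% of genes tested), 1212 higher (8.12%) and 1638 lower (11%). Organoids were transplanted again in each round, so those of round 3 may share descent with those of round 2. Round 3 is thus no independent repeat, and the part of descent in the shared changes was not tested. Of the 1768 genes called in round 2, 1652 had the same sign there and 969 were called in the same direction (54.8% of the round 2 calls and 34.0% of the round 3 calls), while 2 were called in the opposite direction. Across all 14925 genes the fitted changes correlated with Pearson r = 0.614 and Spearman rho = 0.547, and 0.721 and 0.644 without Met2 replicate 1; genes are not independent, and no p is attached. Gata6 had 0.108, 0 and 0 CPM in Met3, against 7.68, 4.63 and 9.72 CPM in Primary3. Gata4 had 22.2, 10.3 and 8.86 CPM in Met3, against 0.135, 0 and 0 CPM in Primary3. Bex1, Timp3, Ankrd1, Cdx2, Areg, Ereg and Ptges were called in the same direction in both rounds.

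The difference between the rounds itself was tested as (Met2 - Primary2) - (Met3 - Primary3). With edgeR 0 of 14925 genes passed (0.0%), 1817 had an unadjusted p under 0.05, and the lowest adjusted p was 0.096; DESeq2 called 225 and limma-voom 0. Limma-voom with quality weights, and edgeR without Met2 replicate 1, each called 1 gene, the predicted gene Gm28438, named because the count was so small. It had 161, 108 and 86.9 CPM in Met2, against 341, 284 and 298 CPM in Primary2, and 205, 221 and 233 CPM in Met3, against 162, 185 and 207 CPM in Primary3. Of named genes with a symbol, the smallest unadjusted p values belonged to Vwa8, Camk1, Fkbp9 and Tnfrsf8, all changed in round 3 and none called in round 2. Tnfrsf8, the receptor CD30, had 1.34, 1.16 and 2.79 CPM in Met2 and 1.45, 1.67 and 1.61 CPM in Primary2, against log2 4.17 in round 3. Krt15, called in round 2, had 16.2, 13 and 7.34 CPM in Met3 and 32.7, 5.65 and 20.1 CPM in Primary3, and the difference between rounds (4.84, SE 1.18) did not pass (adjusted p = 0.261).

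**Figure D5:**
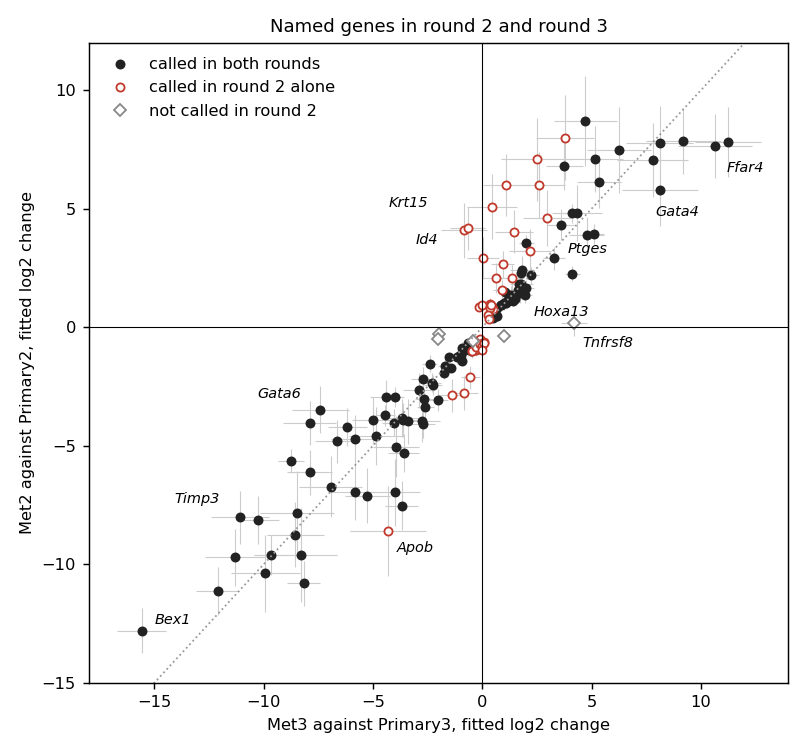
Fitted log2 change in round 2 (Met2 against Primary2, vertical) and in round 3 (Met3 against Primary3, horizontal) for 152 named genes, with standard errors as grey lines and the line of equal change dotted. Filled points are the 104 genes called in both rounds, open red circles genes called in round 2 alone, grey diamonds genes not called in round 2; Bex1 lies at -12.80 and -15.58.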

How the data were processed

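Salmon 1.3.0 and the mm10 build are named in the submitters' processing notes. The deposited table holds estimated counts per gene for 54418 Ensembl IDs, all whole numbers; the summing of transcripts, the annotation release and any rounding or filter by the authors are not stated. Columns were matched to samples through the library name in the labels. Symbols and positions came from GENCODE M21 (GRCm38), which matched 54166 IDs; the other 252 hold 0.00577% of counts. Promoter sequences came from RefSeq (GRCm38.p6).

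edgeR 4.0.16 under R 4.3.3 (filterByExpr by group, 14925 genes kept with 99.9% of counts, TMM, quasi-likelihood F test) fitted group means over all 15 libraries. Calls were made at a Benjamini-Hochberg adjusted p under 0.05 over all genes of a comparison. Each standard error was taken as the size of the log2 change over the root of its F value. CPM values use TMM-scaled library sizes and do not correct for gene length, so levels of different genes are not compared. Where a group held no count, a bound was computed against 3 counts over the group, and where it held 1 to 3 counts the ratio has an exact binomial 95% interval; both cover counting error only.

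Alternatives were DESeq2 1.42.0, limma-voom 3.58.1 with and without quality weights, other size factors and filters, the ribosomal RNA share as a covariate, that gene left out, the 6 libraries alone, a replicate block, and each library left out. Code was tested on simulated data. Named genes follow a rule: the genes of the title and genotype, the 12 largest changes each way (non-overlapping, mean log2 CPM of at least 1, also called without Met2 replicate 1), the smallest p values, up to 4 called members of each list, and the genes farthest apart in Met2 replicate 1; predicted and unnamed genes were passed over. A few named genes are not reported here. Some further members called in a list are named beside its count, and Hnf4a, Lgr5, Axin2, Vim and Hoxb6, which are list members, were picked after their values were seen. The comparison, the lists and the rule were chosen with earlier results of these data known, so they are no independent support. No sequencing batch or date is given by the labels.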

Additional observations from a re-analysis of the deposited data

How the results depend on the processing

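Counts of calls depended on the libraries, the method and the covariate used in the fit. With all libraries 1768 genes were called, 821 higher, 947 lower and 840 at least 2-fold. DESeq2 called 2830 (1447 higher). The 6 libraries alone called 215 (93 higher, 122 lower, 186 at least 2-fold), and the ribosomal RNA covariate left 112 (38 higher, 74 lower, 103 at least 2-fold). An alternative added after seeing the data, the 6 libraries without Met2 replicate 1, called 1078 (513 lower). Leaving out 1 library gave 715 to 2150 genes called, 293 to 1049 higher, 422 to 1101 lower and 402 to 1200 at least 2-fold; the lowest values came without Primary2 replicate 3 and the highest without Met2 replicate 1. The cause was not tested, beyond the fewer libraries in these fits. For the difference between rounds DESeq2 called 225 genes, limma-voom with quality weights 1, and leaving out 1 library 0 to 17.

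No pairing by replicate number was seen: same-numbered Met2 and Primary2 libraries deviated with correlations of -0.0352, -0.0869 and 0.0864. Libraries with different numbers gave -0.183 to 0.198. The labels do not say what a number marks, so these values cannot decide whether libraries were paired. A fit with the number as a block called 1627 genes.

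Among single genes the sign turned in Prl2c2 (-0.092), Hs3st3b1 (0.64) and Tnfrsf8 (-0.78) with the ribosomal covariate, and in Tnfrsf8 (-0.091) with quality weights. Leaving out 1 library gave -0.016 to 4.59 for Dpp6, -9.03 to 0.47 for Hs3st3b1 and -0.30 to 0.40 for Tnfrsf8; none of these genes was called with all libraries. Without Met2 replicate 1 the sign also turned in 7 genes picked for that library's distance: Ptn (-4.41), Gstm7 (-5.07), Cxcl15 (-1.45), Fetub (-6.14), Fermt2 (-4.48), Dapl1 (-0.20) and Masp1 (-4.30). Of 164 named genes, 114 lost the call with the ribosomal covariate, and 86 of 152 with the 6 libraries alone. Depth limits genes near 0, where a bound or interval replaces the fold.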
